A study of Mus musculus with 12 samples.

Results

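The right ventricle (RV) was compared with the left ventricle (LV) in adult mouse hearts labelled as having lost Wnt function (loss of function, Wnt LOF). The comparison rests on the 6 Wnt LOF libraries of the 12 RNA-seq libraries in the series, 3 labelled LV and 3 labelled RV, and the libraries of equal number were taken as a pair. The other 6 libraries, 3 LV and 3 RV, came from control hearts and served as the reference. In the main tests they also shared 1 estimate of the spread with the Wnt LOF libraries. The labels name neither the allele, the gene removed nor the cell type in which the Wnt pathway was altered, and what the controls carry is not named either. Whether libraries of 1 group are from different animals is not stated, so p-values cannot be read as the spread between animals. In the paired tests they measure how the RV to LV difference varies between pairs of libraries, control pairs included. The question, from the series title, is how the right and left ventricles differ in Wnt-dependent gene expression and in arrhythmia.

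Wnt proteins are secreted ligands that bind Frizzled receptors and LRP co-receptors. In the canonical branch beta-catenin escapes its destruction complex, enters the nucleus and acts with TCF/LEF factors on target genes. Secreted antagonists such as WIF1, which binds Wnt ligands, and the SFRP and DKK proteins limit the signal. The ventricles arise from different progenitor fields and work against different pressures, and in the adult mouse heart they differ in ion channel expression, repolarisation, metabolism and matrix.

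3 sequences are shown because the results turn on the genes they belong to. The first is the mature miRNA annotated at the Mir6236 locus, chr9:110281353-110281371 on the plus strand, and capitals mark its seed (bases 2 to 8). The others are the 250 bases before the annotated starts of Wif1, chr10:121033754-121034003, and of Kcnd2, chr6:21215096-21215345, both on the plus strand, and capitals mark CTTTG, the core of the TCF/LEF motif. Sequences and coordinates are those of RefSeq on GRCm38.p6.
mmu-miR-6236: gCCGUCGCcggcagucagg
Wif1: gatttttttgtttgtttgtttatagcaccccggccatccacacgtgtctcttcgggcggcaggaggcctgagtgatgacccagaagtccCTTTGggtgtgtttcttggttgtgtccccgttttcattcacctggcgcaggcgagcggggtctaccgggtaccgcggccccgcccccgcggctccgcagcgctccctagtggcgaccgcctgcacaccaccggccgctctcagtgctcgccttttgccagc
Kcnd2: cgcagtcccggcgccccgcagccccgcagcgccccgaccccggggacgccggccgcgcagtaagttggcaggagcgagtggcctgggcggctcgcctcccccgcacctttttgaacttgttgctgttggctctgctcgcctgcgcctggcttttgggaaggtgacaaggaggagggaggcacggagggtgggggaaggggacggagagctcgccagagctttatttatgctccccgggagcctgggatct
CTTTG or its reverse complement CAAAG was present in 42.6% of the windows of this length available for 11127 of the 15494 genes tested, so a match is common. It was present in 44.4% of the 160 windows of genes called higher and 48.4% of the 64 of genes called lower without pair 1. The window of Kcnd2 holds neither.

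Total counts per Wnt LOF library, in units of 1e+06, ran from 14.9 to 17.8, and over all libraries from 13.3 to 19.2. Mitochondrially encoded genes took 4.62% to 8.29% of the counts. Equal numbers also went together in the data. For 9 autosomal genes that were either under 0.5 or at least 2 CPM (counts scaled to a library of 1e+06) in every library, the LV and RV library of each Wnt LOF pair shared all 9 states, and Wnt LOF libraries of different number shared 3 to 8. In the controls the library labelled control LV 2 shared 4 of the 9 states with control RV 2, and all 9 with both libraries of Wnt LOF pair 1. The limit of 0.5 CPM was chosen after the planned limit of 0.1 CPM had found 0 genes. Ddx3y, a Y-linked gene, was above 1 CPM only in the libraries numbered 3, and Xist, the X-inactivation RNA, stood at 25.1 CPM in Wnt LOF RV 3 and at 3.59 CPM in Wnt LOF LV 3.

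Pair 1 of the Wnt LOF hearts ran opposite to its labels for genes that separate the ventricles of control hearts. Wif1, the Wnt antagonist, was at 13.5, 1.65 and 1.63 CPM in the Wnt LOF LV libraries 1, 2 and 3 and at 2.56, 14.2 and 13.2 CPM in the RV libraries 1, 2 and 3. Control hearts had 2.62, 2.69 and 3.18 CPM in the LV and 11.99, 12.2 and 18.4 CPM in the RV. The library labelled Wnt LOF LV 1 thus held a level seen in RV libraries, the library labelled Wnt LOF RV 1 a level seen in LV libraries, and the labelled groups overlapped. Aqp4, a water channel, showed the same order, with 31.2, 8.03 and 10.6 CPM in the Wnt LOF LV and 8.11, 35.5 and 27.5 CPM in the RV. Kcnd2, the pore subunit Kv4.2 of the transient outward potassium current, had 91.2, 43.05 and 27.8 CPM in the LV and 54.1, 109 and 59.5 CPM in the RV. Nrn1, which encodes the small surface protein neuritin, ran the other way, with 4.33, 8.62 and 12.6 CPM in the LV and 11.1, 1.56 and 5.05 CPM in the RV. In all 4 genes the levels of pair 1 were crossed relative to pairs 2 and 3 and to the 3 control pairs. Directions of pair 1 are given by label throughout. Whether its labels were exchanged was not tested, and each of its directions would turn around if they were.

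**Figure D1:**
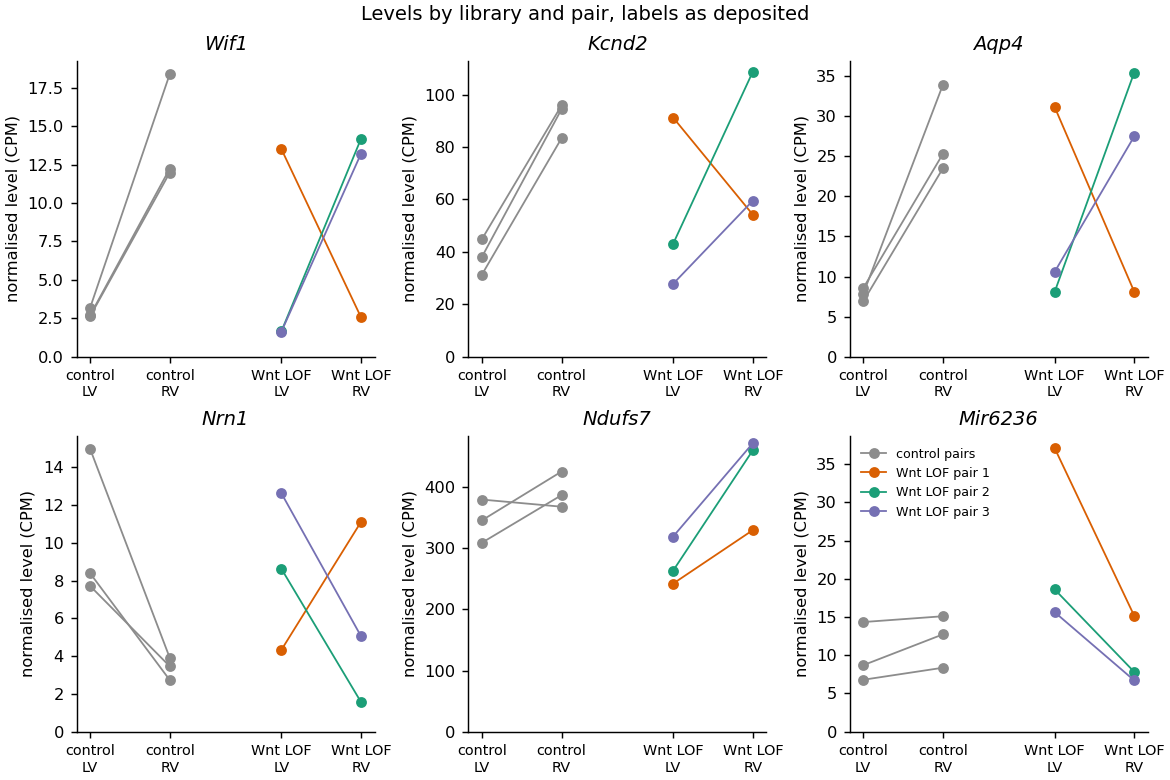
Normalised level (CPM, linear axis from 0) of 6 genes in each library, with lines joining the LV and RV library of equal number; grey marks control pairs and colours mark the 3 Wnt LOF pairs. For Wif1, Kcnd2, Aqp4 and Nrn1 the line of Wnt LOF pair 1 runs against all others, while for Ndufs7 and Mir6236 the 3 Wnt LOF lines run in 1 direction.

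The crossing held across the genes that differed between the ventricles of control hearts. In the 6 control libraries alone, with the number as a block, edgeR's quasi-likelihood test called 326 of 14899 genes at an adjusted p under 0.05 (2.19%). In the RV 143 of them (0.96%) were higher and 183 (1.23%) were lower. This test counts control LV 2 and control RV 2 as a pair, though they shared only 4 of the 9 on-off states above. Of these 326 genes, 32 (9.82%) had the control direction in Wnt LOF pair 1, against 317 (97.2%) in pair 2 and 292 (89.6%) in pair 3. For the 143 genes higher in the control RV, the median difference between the RV and LV library was -0.42 in pair 1, 0.62 in pair 2 and 0.35 in pair 3 on the log2 scale. For the 183 lower genes it was 0.32, -0.62 and -0.21. Pair 3 lay closer to 0 than pair 2 in both sets. The control genes depend on how they are found: with all 12 libraries sharing 1 estimate of the spread, 0 genes were called in control hearts (1440, or 9.29%, at an unadjusted p under 0.05, and 1 by DESeq2). When Wnt LOF pair 1 was left out of that fit, 139 (0.886%) were called, 67 (0.427%) higher and 72 (0.459%) lower.

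**Figure D2:**
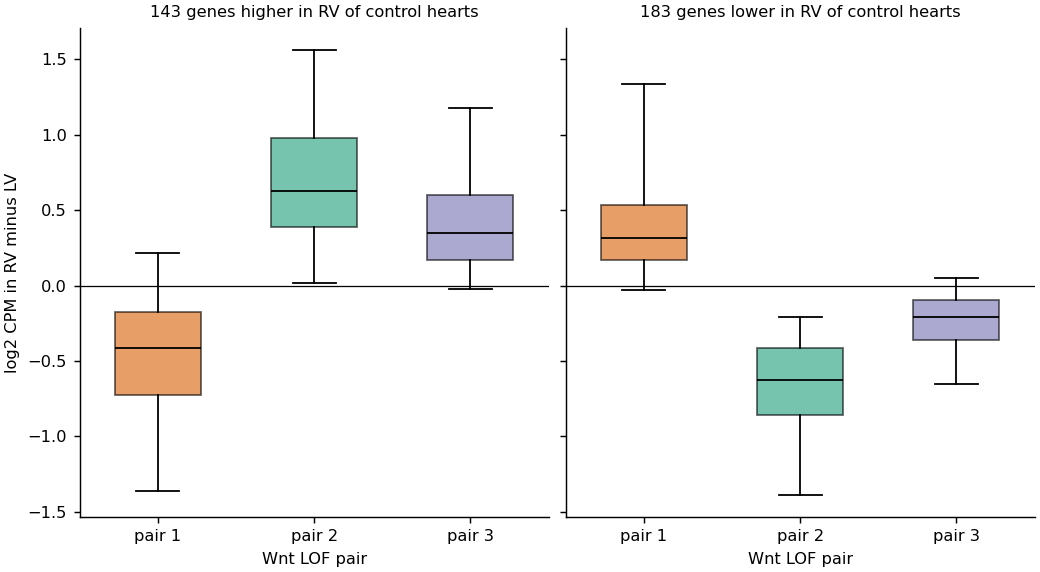
Difference between the RV and LV library (log2 CPM) in each Wnt LOF pair for the 143 genes higher and the 183 genes lower in the RV of control hearts; boxes span the quartiles, the line is the median and whiskers reach the 5th and 95th percentiles. The boxes of pair 1 lie on the opposite side of 0 from those of pairs 2 and 3.

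With the labels as deposited, 1 of 15494 genes passed an adjusted p of 0.05 in edgeR's test with the block (0.00645%), and 1272 (8.21%) were under an unadjusted p of 0.05. The gene was Mir6236 (ENSMUSG00000098973), a miRNA gene. Its level was 37.1, 18.6 and 15.7 CPM in the Wnt LOF LV libraries and 15.2, 7.82 and 6.71 CPM in the RV libraries. By label, each RV library was below its LV partner, pair 1 included, by -1.28, -1.24 and -1.21 on the log2 scale. All 3 RV libraries were below all 3 LV libraries, RV 1 only just. The log2 fold change was -1.26 (SE 0.11, adjusted p = 0.00111), by edgeR. Control hearts had 6.79, 14.3 and 8.70 CPM in the LV and 8.37, 15.1 and 12.7 CPM in the RV, and each control RV library was slightly above its partner. Counts over this locus are RNA-seq fragments, so they do not measure the mature miRNA printed above. The call was lost without the block (adjusted p = 0.9996), and DESeq2 gave the gene an unadjusted p of 2.68e-12 with no adjusted p.

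Below that threshold, the genes named are those of smallest p among genes with 1 direction in all 3 pairs. Agreement of the pairs was thus a condition for naming them and not a result. Fth1, the heavy chain of the iron store ferritin, had 205, 223 and 314 CPM in the Wnt LOF LV and 273, 395 and 581 CPM in the RV. Each RV library was above its own partner, though RV 1 was below LV 3. Its log2 fold change was 0.71 (SE 0.11, adjusted p = 0.128). Ndufs7, a subunit of respiratory complex I, had 242, 264 and 319 CPM in the LV and 329.8, 460.4 and 472 CPM in the RV, so all 3 RV libraries stood above all 3 LV libraries. Its log2 fold change was 0.60 (SE 0.098, adjusted p = 0.147). Iscu, a scaffold for iron-sulfur clusters, Uqcr10 of complex III and the ribosomal stalk protein Rplp1 had log2 fold changes of 0.59 (SE 0.10), 0.59 (SE 0.10) and 0.79 (SE 0.13), each with an adjusted p of 0.147. On the low side, the fibril-associated collagen Col16a1 had 29.4, 25.8 and 21.6 CPM in the LV and 18.9, 17.7 and 15.5 CPM in the RV, with a log2 fold change of -0.56 (SE 0.097, adjusted p = 0.147). All 3 RV libraries were below all 3 LV libraries. Over all genes tested, 520 (3.36%) had 3 RV libraries above the 3 LV libraries and 573 (3.7%) had them below.

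The count with the labels as deposited depended on the tool. DESeq2 with the same block called 81 of 15494 genes, of which 78 rose and 3 fell in the RV. All 81 had 1 direction in the 3 pairs, which a test with the block favours. Over all genes tested 14.6% were higher and 12.5% lower in the RV in all 3 pairs. Members of the lists used here among the 81 were 22 nuclear genes of the respiratory chain and 5 cytosolic ribosomal proteins. Those lists had 37 genes of complex I, 41 of complexes II to V and 42 ribosomal proteins tested. Other such genes that are not on those lists are not in these counts. Of the 81, 57 were also called by edgeR without pair 1. By DESeq2 the adjusted p was 3.52e-06 for Fth1, 1.09e-05 for Rplp1 and 3.44e-05 for Ndufs7. The median length of the longest annotated transcript was 983 bases for these genes and 3195 bases for all genes tested.

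The Wnt LOF hearts were therefore also compared without pair 1, which leaves 2 LV and 2 RV libraries. The spread was then estimated from Wnt LOF pairs 2 and 3 together with the control pairs. The values of pair 1 were the reason to leave it out, so the calls that follow describe pairs 2 and 3 and are not an independent test. Without it, edgeR called 297 of 15692 genes (1.89%), with 215 (1.37%) above and 82 (0.523%) below the LV, and 2473 (15.8%) were under an unadjusted p of 0.05. The number rested on the block, without which Wif1 and Aqp4 were the 2 genes called, and on the pairs: 18 genes were called without pair 2 and 897 without pair 3. Leaving out control pair 2 gave 179 calls. Of 74 named genes called, 72 lost the call without the block, 11 kept it without pair 2 and 61 without pair 3. A setting that gave a gene no adjusted p was not counted as a loss. Where a call below is given as lost, the settings named are the losses other than those without the block or without pair 2. 3 of these settings often went together and are called the 3 spread settings: a dispersion that was not robust, the Wnt LOF libraries alone, and control pair 2 left out. With total counts as the scale 298 genes were called, of which 109 were higher and 189 lower, so the split between the directions depended on the scaling. The same scale moved the median of all genes by less than 0.1 on the log2 scale. Of the 297 genes, 86 (29.0%) were among the 326 genes called in the control libraries (26.4% of those), and all 86 had the control direction.

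Wif1 and Ubxn10 had the largest rises without pair 1 among genes with a mean log2 CPM of at least 1. By edgeR the log2 fold change of Wif1 was 3.06 (SE 0.19, adjusted p = 1.52e-06), and in the control hearts of the same fit it was 2.30 (SE 0.14, adjusted p = 1.24e-06). Ubxn10, a cilium-linked UBX-domain protein, had 11.7, 3.49 and 1.12 CPM in the Wnt LOF LV libraries and 4.50, 16.8 and 10.3 CPM in the RV libraries. The 2 RV libraries of pairs 2 and 3 were above their partners, and the libraries of pair 1 were crossed. Its log2 fold change was 2.62 (SE 0.25, adjusted p = 3.06e-04), and 2 other cilium-linked genes, the microtubule protein Rp1 (1.71 (SE 0.25)) and Cfap61 (1.21 (SE 0.25)), were called higher too, 3 of the 14 tested on that list, and the call of Cfap61 was lost without Wnt LOF pair 3. Aqp4 rose by 1.75 (SE 0.17, adjusted p = 5.93e-04). Cadps2, which primes vesicles for release, had 16.3, 11.3 and 16.7 CPM in the LV and 14.00, 22.6 and 53.1 CPM in the RV, and RV 3 stood above all other libraries. Its log2 fold change was 1.37 (SE 0.15, adjusted p = 5.54e-04). Sort1, a sorting receptor, had 119, 72.2 and 45.6 CPM in the LV and 65.2, 123 and 75.6 CPM in the RV, crossed in pair 1, and a fold change of 0.75 (SE 0.093, adjusted p = 0.00110). Tmem163 and Acsm5, the latter a medium-chain acyl-CoA synthetase, rose by 1.56 and 1.38.

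Among called genes with a mean log2 CPM of at least 1, the deepest falls without pair 1 were of Nrn1 and Mir6236. Nrn1 had a log2 fold change of -1.75 (SE 0.25, adjusted p = 0.00673), against -1.59 (SE 0.21, adjusted p = 0.00270) in control hearts of the same fit. Rtn4r, a receptor for myelin inhibitors of axon growth, had 4.57, 11.4 and 3.48 CPM in the Wnt LOF LV and 12.1, 4.03 and 2.17 CPM in the RV. Its level in pair 1 was crossed, and in pair 3 both libraries were low. The log2 fold change was -1.19 (SE 0.22, adjusted p = 0.0167). Cnksr1, a scaffold of Ras signalling, fell by 1.16 (SE 0.22, adjusted p = 0.0167). Prc1, which organises the spindle midzone, and Hnrnpa1, an RNA-binding protein, had log2 fold changes of -1.04 (SE 0.24) and -0.96 (SE 0.22), and both calls were lost in the 3 spread settings. Plekhh1, Cdh4 and Cpxm2, which were among the control genes most reduced in the RV, had -1.27 (SE 0.50), -0.57 (SE 0.54) and -0.87 (SE 0.25) and did not pass.

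The genes of the Wnt pathway were described by role. Beside the counts of this and the later lists, 1.37% of all genes tested were called higher and 0.523% lower without pair 1. Among ligands and R-spondins 0 of 7 tested passed without pair 1. Wnt5a, a non-canonical ligand, had 19.6, 12.4 and 11.2 CPM in the Wnt LOF LV and 11.6, 20.2 and 15.7 CPM in the RV, with levels crossed in pair 1 and a log2 fold change of 0.60 (SE 0.16, adjusted p = 0.0685). Wnt11 stood at 0.60 (SE 0.19), with an adjusted p of 0.112. Among receptors and co-receptors 0 of 16 passed, and the co-receptor Lrp5 had -0.28 (SE 0.11). Of 9 secreted antagonists 1 was called, Wif1, and the median of the list was 0.38 against 0.0027 for all genes. In control hearts the median of that list was 0.24. Of 18 genes of beta-catenin, its destruction complex and the TCF factors 0 passed. Ctnnb1, which encodes beta-catenin itself, had 395, 532 and 409 CPM in the Wnt LOF LV and 424, 454 and 352 CPM in the RV. The 2 groups overlapped, and the log2 fold change was -0.11 (SE 0.10, adjusted p = 0.821) with the labels as deposited and -0.22 (SE 0.11, adjusted p = 0.343) without pair 1. Of 13 target and feedback genes 1 was called: Ccnd1, which encodes cyclin D1, fell by 0.58 (SE 0.11, adjusted p = 0.0184). Its level was 35.9, 67.3 and 73.7 CPM in the LV and 51.1, 39.4 and 56.2 CPM in the RV, crossed in pair 1. Axin2, a feedback target of the canonical pathway, had 8.06, 7.77 and 3.48 CPM in the LV and 5.61, 7.28 and 4.47 CPM in the RV, with overlapping groups and a log2 fold change of 0.10 (SE 0.24, adjusted p = 0.886).

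Of 13 transient outward and delayed rectifier potassium channel genes, 1 was higher and 1 lower in the RV without pair 1. Kcnd2 rose by 1.22 (SE 0.10, adjusted p = 3.19e-05), against 1.27 (SE 0.083, adjusted p = 1.36e-06) in control hearts of the same fit. The difference between the genotypes was -0.049 (SE 0.13). Kcne1, the auxiliary subunit of the slow delayed rectifier, had 2.73, 11.1 and 14.5 CPM in the Wnt LOF LV and 5.89, 4.93 and 10.4 CPM in the RV. Pair 1 was crossed, and the log2 fold change was -0.78 (SE 0.18, adjusted p = 0.0444), a call lost in the 3 spread settings. Kcnip2, the partner KChIP2 of Kcnd2, had 212, 221 and 264 CPM in the LV and 231, 187 and 281 CPM in the RV and a log2 fold change of -0.073 (SE 0.11, adjusted p = 0.798). Kcna5 (Kv1.5) stood at -0.19 (SE 0.097) and the inward rectifier Kcnj2 (Kir2.1) at 0.31 (SE 0.10), and neither passed, nor did any of the 15 inward rectifier, background and pacemaker genes. Of 16 sodium and calcium channel genes 1 was called, Scn4b, a sodium channel beta subunit, which fell by 0.60 (SE 0.10, adjusted p = 0.0121).

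Of 21 calcium handling genes 1 was called, Casq1, the skeletal isoform of calsequestrin, with -0.76 (SE 0.18, adjusted p = 0.0481). That call was lost in the 3 spread settings too. Of 15 junction genes 1 rose, the desmosomal cadherin Dsg2. It had 64.9, 50.7 and 58.95 CPM in the Wnt LOF LV and 47.5, 76.5 and 89.2 CPM in the RV, and RV 1 was the lowest of all 6. The log2 fold change was 0.60 (SE 0.10, adjusted p = 0.0115). Gja1, which encodes connexin 43, had 348, 280.3 and 349.6 CPM in the LV and 316, 293 and 321 CPM in the RV. Its groups overlapped, with a log2 fold change of -0.028 (SE 0.099, adjusted p = 0.926). Of 22 chamber and cardiac transcription factors 1 rose, Hey2, a Notch-linked repressor, by 0.91 (SE 0.17, adjusted p = 0.0154). Its levels were 11.6, 7.64 and 6.90 CPM in the LV and 9.05, 17.1 and 10.7 CPM in the RV, crossed in pair 1. Irx5, a homeodomain factor of the repolarisation gradient, stood at -0.76 (SE 0.29), while Irx4, Hand2, Tbx5 and Tbx20 were at 0.086 (SE 0.10), 0.0070 (SE 0.099), -0.17 (SE 0.20) and 0.078 (SE 0.089). Hand1 had 1 count in the whole table and was not tested.

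Nuclear genes of the respiratory chain had the most calls of any list examined. Of 37 tested genes of complex I 14 were higher and 0 lower in the RV without pair 1. Over all genes tested the shares were 1.37% and 0.523%. The median log2 fold change of the list was 0.46 against 0.0027 for all genes. Of 41 genes of complexes II to V 15 were higher and 0 lower, with a median of 0.44. In contrast to the ventricle genes above, pair 1 had the same direction by label, which would be opposite if its labels were exchanged. Its median was 0.22 for complex I and 0.14 for complexes II to V. In all 3 pairs 31 genes of each list were higher in the RV (14.6% of all genes tested were). Of the called genes, 14 of the 14 and 14 of the 15 were higher in pair 1 as well. With the labels as deposited the medians were 0.39 and 0.35, and 0 of these genes passed by edgeR. Control hearts had the same direction: in the fit of all 12 libraries 37 of 37 and 40 of 41 genes were above 0. Over all genes tested 7917 of 15494 were above 0. The control medians were 0.24 and 0.28, and 0 of the genes passed. By control pair 1, 2 and 3 the medians were 0.0030, 0.36 and 0.41 for complex I and 0.039, 0.40 and 0.41 for complexes II to V. Ndufa6 of complex I had 119, 111 and 161 CPM in the Wnt LOF LV and 149, 203 and 247 CPM in the RV. Each RV library was above its partner, and the log2 fold change was 0.74 (SE 0.11, adjusted p = 0.00428). Cox6a2, the muscle form of a cytochrome c oxidase subunit, had 437, 475 and 559 CPM in the LV and 516, 1239 and 1031 CPM in the RV, with RV 2 and RV 3 above all others. It rose by 1.14 (SE 0.15, adjusted p = 0.00428). Atp5d and Atp5j2 of the ATP synthase rose by 0.64 and 0.70.

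Genes encoded by the mitochondrial genome followed the same direction. Of 13 on the list 7 were tested and 4 rose without pair 1, and the medians of pairs 1, 2 and 3 were 0.20, 0.58 and 0.38. Control pairs had 0.14, 0.12 and -0.14. The complex I subunit mt-Nd4 had 1035, 1338 and 1025 CPM in the Wnt LOF LV and 1202, 2577 and 1850.0 CPM in the RV. Each RV library was above its partner, RV 1 least, and the log2 fold change was 0.90 (SE 0.11, adjusted p = 0.00130). The share of all counts from mitochondrially encoded genes moved with this result, at 4.62%, 5.58% and 5.70% in the LV libraries 1, 2 and 3 and 4.98%, 8.29% and 7.05% in the RV libraries. Its part in the other results was not tested. Of 42 cytosolic ribosomal proteins 4 rose, among them Rplp1 with 81.4, 86.8 and 93.6 CPM in the LV and 121, 170.3 and 165 CPM in the RV. All 3 RV libraries of Rplp1 were above all 3 LV libraries, and the log2 fold change was 0.90 (SE 0.14, adjusted p = 0.0144). The call of Rplp1 was lost without Wnt LOF pair 3. The calls of Rplp0 and Rpl14 were lost with total counts and in the 3 spread settings, and that of Rpl14 also by DESeq2 and with the length offset.

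**Figure D3:**
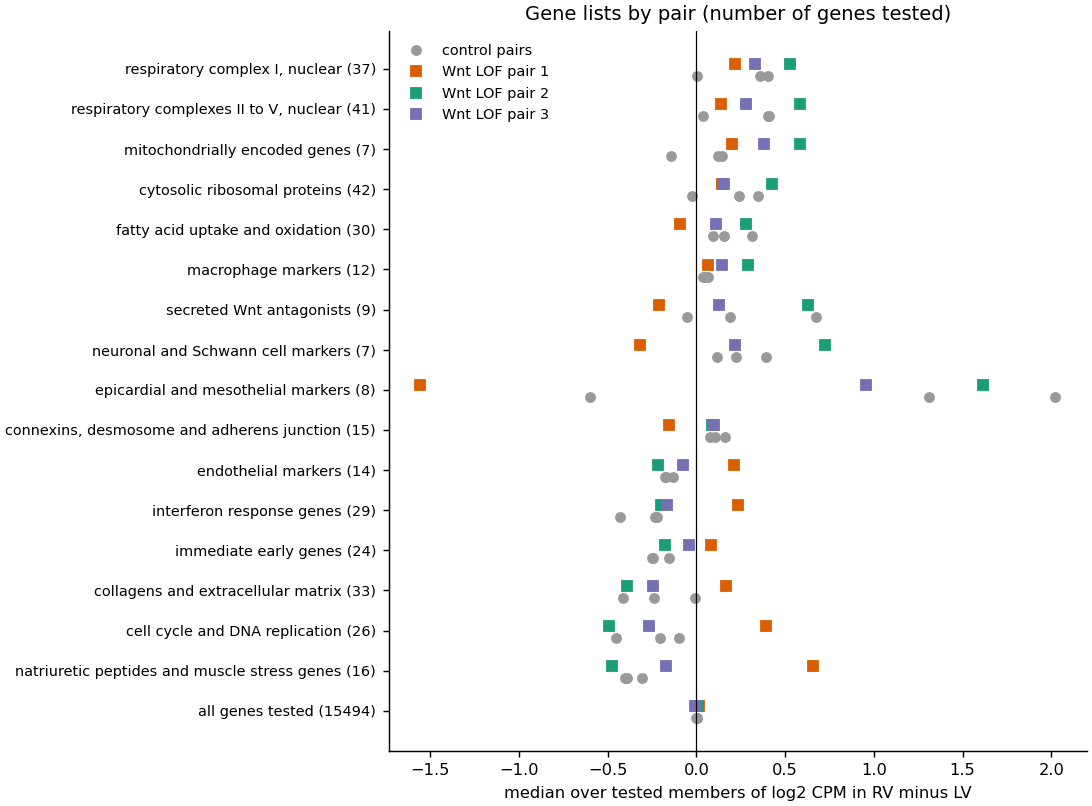
Median difference between the RV and LV library (log2 CPM) over the tested members of each gene list, by pair; squares are the Wnt LOF pairs, grey circles the control pairs, and the number of genes tested follows each name. Pair 1 lies on the same side of 0 as pairs 2 and 3 for the respiratory chain and ribosomal lists and on the opposite side for matrix, cell cycle and stress genes.

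These lists hold short transcripts, and the difference between the ventricles went with transcript length in every Wnt LOF pair. Among 158 protein-coding genes with transcripts of up to 800 bases and a mean log2 CPM of at least 1, the median difference was 0.26 in pair 1, 0.54 in pair 2 and 0.32 in pair 3. In control pairs 1, 2 and 3 it was -0.061, 0.49 and 0.30. Among 3608 genes of 2501 to 4000 bases it lay between -0.032 and 0.033 in the Wnt LOF pairs. Of the 158 short genes 28 (17.7%) were called higher without pair 1 and 0 lower, against 0.887% higher and 0.748% lower in the 2501 to 4000 base group. With an offset for each library that follows transcript length, an alternative added after the data were seen, 15 genes of complex I, 14 of complexes II to V, 3 mitochondrially encoded and 4 ribosomal protein genes were called higher, and their list medians were 0.38, 0.31, 0.47 and 0.23. The part of transcript length in these calls beyond that offset was not tested.

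**Figure D4:**
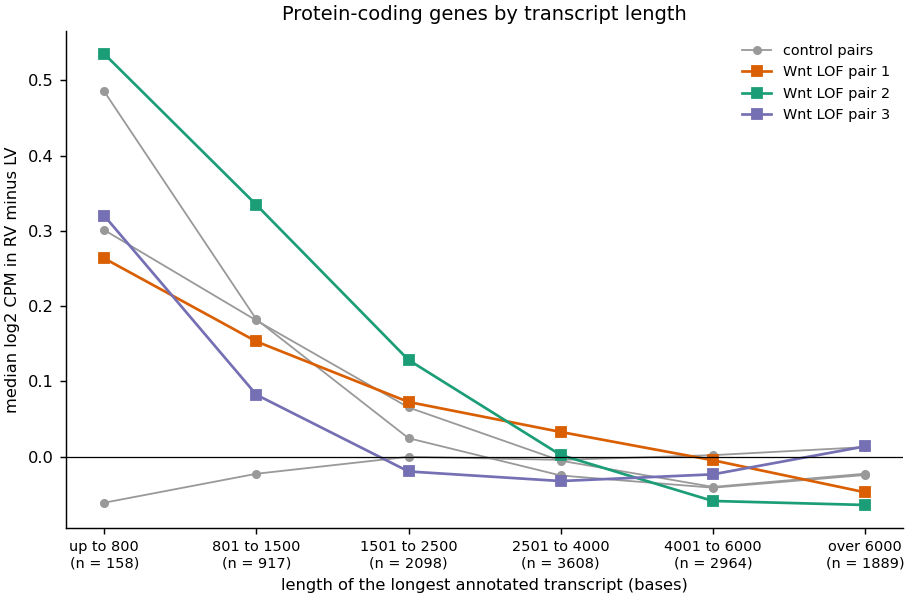
Median difference between the RV and LV library (log2 CPM) of protein-coding genes by the length of their longest annotated transcript, for each Wnt LOF pair (colours) and control pair (grey), with the number of genes under each group. In all 3 Wnt LOF pairs the shortest transcripts have the highest median, and groups over 2500 bases lie near 0.

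Of 30 genes of fatty acid uptake and oxidation 3 rose without pair 1 and 0 fell. The list median was 0.21, against 0.20 in control hearts. Pdk4, which restrains pyruvate oxidation, had 763, 297 and 313 CPM in the Wnt LOF LV and 376, 478 and 478 CPM in the RV, crossed in pair 1, and rose by 0.65 (SE 0.11, adjusted p = 0.0120). Fabp3, the heart fatty acid carrier, had 618, 554 and 912 CPM in the LV and 797, 1015 and 1153 CPM in the RV, with each RV library above its partner, and a log2 fold change of 0.61 (SE 0.14, adjusted p = 0.0450). That call was lost with total counts, with the length offset and in the 3 spread settings. Bdh1, which uses ketone bodies, had 64.8, 102 and 216 CPM in the LV and 174, 37.4 and 155 CPM in the RV, crossed in pair 1, and its log2 fold change of -0.93 (SE 0.34) did not pass. Of 28 genes of glycolysis, glycogen and pyruvate 1 rose, Pfkfb1, a regulator of glycolysis, by 0.84 (SE 0.13, adjusted p = 0.00673).

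Matrix genes were the list with the most falls. Of 33 collagens and other matrix genes 9 were lower and 0 higher in the RV without pair 1. Over all genes tested 0.523% were lower and 1.37% higher. The list median was -0.29 against 0.0027 for all genes. The basement membrane collagen Col4a1 had 712, 1227 and 1160.0 CPM in the Wnt LOF LV and 886, 581 and 841 CPM in the RV. Pair 1 was crossed, and the log2 fold change was -0.77 (SE 0.13, adjusted p = 0.0138). Col4a2, which assembles with Col4a1, fell by 0.64 (SE 0.12). Col8a1, a short-chain collagen, had 33.1, 53.4 and 54.1 CPM in the LV and 54.04, 20.8 and 34.4 CPM in the RV, and fell by 0.99 (SE 0.14, adjusted p = 0.00673). Papln, a matrix protein related to the ADAMTS family, fell by 0.84 (SE 0.12, adjusted p = 0.00610), against -0.80 (SE 0.10, adjusted p = 0.00138) in control hearts of the same fit. Col16a1, described above, was below its LV partner in all 3 pairs, and it is not on the list of 33. Its fall without pair 1 was -0.51 (SE 0.12, adjusted p = 0.0447), a call lost by DESeq2, with the length offset, in the 3 spread settings and without Wnt LOF pair 3. The list medians of pairs 1, 2 and 3 were 0.17, -0.39 and -0.24. In control hearts 28 of the 33 genes were below 0 (7577 of all 15494 genes were), with a median of -0.23. The summed level of 11 fibroblast markers, of which Col1a2 was called lower, was 3977, 3433 and 3556 CPM in the LV libraries and 3657, 4045 and 3169 CPM in the RV libraries. Fewer cells of a type and less RNA per cell cannot be told apart in these bulk libraries.

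Natriuretic peptides and muscle stress genes passed in 0 of 16 tests in either comparison. Nppb, which encodes brain natriuretic peptide, had 8.48, 42.7 and 45.5 CPM in the Wnt LOF LV and 52.1, 7.58 and 33.9 CPM in the RV. LV 1 and RV 2 were the low libraries, pair 1 was crossed, and the log2 fold change without it was -1.30 (SE 0.76, adjusted p = 0.542). Nppa, atrial natriuretic peptide, had 25.6, 48.9 and 68.8 CPM in the LV and 83.7, 31.3 and 22.1 CPM in the RV, and -1.13 (SE 0.54, adjusted p = 0.453). The list medians were 0.66, -0.47 and -0.17 in pairs 1, 2 and 3. In control hearts 15 of the 16 genes were below 0 (7577 of all 15494 genes were), with a median of -0.40. Cell cycle genes passed in 0 of 26 tests, with medians of 0.39, -0.49 and -0.27, and the mitotic kinase Cdk1 stood at -1.09 (SE 0.33). The control median of the 26 was -0.32, with 23 below 0. Of 29 interferon response genes 1 fell, the antiviral enzyme Rsad2 (-0.73 (SE 0.17, adjusted p = 0.0490)), a call lost with the stricter filter, by DESeq2, with a dispersion that was not robust and without Wnt LOF pair 3. All 29 interferon response genes were below 0 in control hearts, with a median of -0.23. Among 24 immediate early genes Ier5 fell by 0.54 (SE 0.11), a call lost without control pair 2.

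Markers of other cells were read beside these results. The labelled tissue matched its defining markers: each of 10 ventricular cardiomyocyte markers exceeded 1 CPM in at least 1 library. They summed to 158839 to 168639 CPM in the Wnt LOF LV and 170628 to 179970 CPM in the RV. By label, all 3 RV libraries were thus above all 3 LV libraries, pair 1 included. In control hearts the sums overlapped, at 165595 to 179376 CPM in the LV and 169318 to 182019 CPM in the RV. In all 3 Wnt LOF pairs 7 of the 10 were higher in the RV, against 14.6% of all genes tested. Of the 10 markers, Tnni3, which encodes cardiac troponin I, rose by 0.65 (SE 0.14, adjusted p = 0.0368) without pair 1. That call was lost with total counts, with the length offset and in the 3 spread settings. The atrial light chain Myl7 had 0.237, 0.461 and 0.337 CPM in the LV and 0.0555, 1.26 and 10.2 CPM in the RV. Myl4, another atrial light chain, had 1.30, 1.71 and 2.86 CPM in the LV and 1.61, 2.59 and 10.7 CPM in the RV. In both genes RV 3 stood far above the other libraries, and Sln, an atrial calcium pump regulator, had 29 counts in RV 3 and at most 3 in any other library. The log2 fold changes without pair 1 were 3.73 (SE 0.54, adjusted p = 0.00749) for Myl7 and 1.43 (SE 0.30, adjusted p = 0.0330) for Myl4, and both calls were lost without Wnt LOF pair 3, that of Myl4 also without control pair 2. The part of atrial muscle in the other results of RV 3 was not tested.

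Epicardial and mesothelial markers, 8 genes, passed in 0 tests, with medians of -1.56, 1.61 and 0.96 in Wnt LOF pairs 1, 2 and 3. Their summed level was 28.05, 27.5 and 33.4 CPM in the LV libraries and 16.00, 64.3 and 51.5 CPM in the RV libraries. RV 1 was the lowest and RV 2 and RV 3 the highest libraries. Control pairs 1, 2 and 3 had list medians of 1.31, 2.02 and -0.60. Aldh1a2, the retinoic acid enzyme of the epicardium, stood at 0.85 (SE 0.21, adjusted p = 0.0522) without pair 1. Acta2, smooth muscle actin, was the 1 of 12 smooth muscle and pericyte markers called. It had 135, 132 and 99.1 CPM in the LV and 151, 277 and 149.7 CPM in the RV, each RV library above its partner and RV 2 the highest, and rose by 0.84 (SE 0.11, adjusted p = 0.00155). Lyve1, a marker of lymphatic endothelium and of resident macrophages, was 1 of 12 macrophage markers and stood at 0.53 (SE 0.13, adjusted p = 0.0452), a call lost with total counts, by DESeq2, in the 3 spread settings and without Wnt LOF pair 3. Dbh, the noradrenaline synthesis enzyme of sympathetic nerves, rose by 0.88 (SE 0.21, adjusted p = 0.0464), 1 of 7 neuronal and Schwann cell genes tested, and lost the call with total counts, with a dispersion that was not robust, without control pair 2 and without Wnt LOF pair 3. Tie1, an endothelial receptor, fell by 0.50 (SE 0.097, adjusted p = 0.0197), 1 of 14 endothelial markers, a call lost with the Wnt LOF libraries alone. Of 20 genes of adrenergic, muscarinic and endothelin signalling 2 rose: Gnas, the stimulatory G protein, by 0.62 (SE 0.099, adjusted p = 0.00677), and Rgs2, a brake on G proteins, by 0.61 (SE 0.099, adjusted p = 0.00782).

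The 297 genes were split by their direction in pair 1. Of the 215 genes called higher without it, 133 (61.9%) were higher in the RV library of pair 1 and 82 were lower. For comparison, of 4683 tested genes that were higher in the RV in both pairs 2 and 3, 48.4% were higher in pair 1, and over both directions pair 1 followed the other 2 pairs in 44.5% of 9421 genes. The median transcript length was 1110 bases for the 133 genes and 2744.5 bases for the 82. Of the 82 genes called lower, 16 (19.5%) were lower in pair 1 and 66 higher, against 40.7% lower in pair 1 among all 4738 genes lower in both other pairs. The median differences in pairs 1, 2 and 3 were 0.10, 0.82 and 0.53 for the higher genes and 0.23, -0.73 and -0.40 for the lower genes. In the fit of all 12 libraries the control hearts had the direction of the call for 209 of the 215 and 81 of the 82 genes. Over all genes tested, 7917 of 15494 were above 0 in control hearts and 7577 below. In the fit that made the calls the control libraries share the estimate of the spread.

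**Figure D5:**
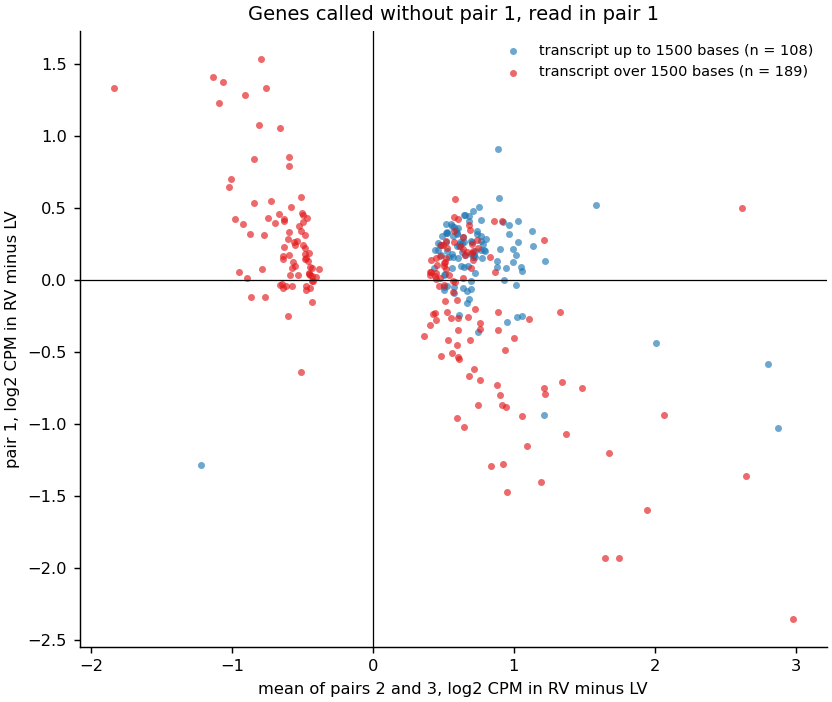
Difference between the RV and LV library (log2 CPM) in Wnt LOF pair 1 against the mean of pairs 2 and 3 for the 297 genes called without pair 1, coloured by transcript length. The x axis chose these genes; on the y axis, 133 of the 215 higher genes lie above 0, with a median transcript length of 1110 bases, and 66 of the 82 lower genes lie above 0.

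The difference between the genotypes, the RV to LV difference in Wnt LOF hearts minus that in control hearts, was tested in the same models. Mir6236 was the 1 gene called with the labels as deposited (0.00645%), at -1.55 (SE 0.16, adjusted p = 0.00627), and the 1 gene called without pair 1 (0.00637%), at -1.53 (SE 0.19, adjusted p = 0.0178), by edgeR. At an unadjusted p under 0.05 there were 633 (4.09%) and 743 (4.73%) genes. The first call was lost without the block, with the length offset, without Wnt LOF pair 3 and without control pair 3. The second was lost without the block, with a dispersion that was not robust, without Wnt LOF pair 2 and without control pair 2 or 3. No other gene named here passed: for Wif1 the difference without pair 1 was 0.76 (SE 0.25), for Aqp4 -0.077 (SE 0.23), for Sort1 -0.0094 (SE 0.12), for Nrn1 -0.16 (SE 0.33), for Papln -0.037 (SE 0.16) and for Ndufs7 0.49 (SE 0.14). A p that misses the threshold does not show that the genotypes were alike, and the SE of the difference for these genes ran from 0.12 for Sort1 to 0.33 for Nrn1.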

How the data were processed

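The authors deposited raw RNA-seq counts, 1 row per Ensembl gene ID, for 12 libraries in 4 groups of 3. Per the submitters' processing notes, featureCounts, Subread and edgeR were used. Aligner, build and strand setting were not given in the sources used here. Overlapping genes, antisense genes and near-identical copies are therefore uncertain. The table had 41192 rows for 40594 genes, and 598 repeated rows with equal counts were left out. Groups and numbers came from the sample titles.

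The models were fitted in R 4.3.3 with edgeR 4.0.16 (on limma 3.58.1), and DESeq2 1.42.0 was the alternative. Genes were kept by filterByExpr over the 4 groups, and TMM factors ran from 0.961 to 1.04. CPM are counts scaled to a TMM-adjusted library of 1e+06. The robust quasi-likelihood fit had 1 mean for each genotype and number (the replicate block) and 1 RV term for each genotype, with 4 residual degrees of freedom for 12 libraries and 3 for the 10 libraries without Wnt LOF pair 1. Benjamini-Hochberg adjustment ran over all genes tested, with a threshold of 0.05, and the SE is the log2 fold change over the square root of F. Differences within a pair are of log2 CPM with a prior count of 2. The rule for named genes took called genes by size, up to 10 a direction with a mean log2 CPM of at least 1. Where few were called, it took genes of smallest p that had 1 direction in every pair that entered. It also took control genes by size and up to 4 called members of each of 44 lists. A fixed set of ventricle, channel and Wnt genes was added. The members, lists and rules were chosen with earlier results of these data known. A few genes that the rule takes are not reported here. The planned rule on on-off states found 0 genes and was relaxed. Transcript lengths were those of GENCODE M21, found for 99.8% of genes tested.

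Equal numbers were taken as pairs because the comparison, as set out beforehand, uses the number as a block. The correlation of deviations from the group means, over 15494 genes, was a check and did not decide this. For numbers 1, 2 and 3 it was 0.411, 0.290 and 0.517 in control hearts and 0.191, 0.197 and 0.594 in Wnt LOF hearts. The highest value between different numbers was 0.201, between Wnt LOF LV 1 and RV 2, above the values of Wnt LOF numbers 1 and 2. That a number stands for 1 heart is not stated in the labels. Alternatives were no block, RLE size factors, total counts, a stricter and no filter, DESeq2, no robust dispersion, 1 genotype alone, each pair left out, and, added after the data were seen, a length offset. The main edgeR fit of the Wnt LOF comparison, with all 12 libraries and without Wnt LOF pair 1, was tried on simulated counts. Those counts carried no pair effect, and the alternatives and the test between genotypes were not tried on them. Total counts of 13.3 to 19.2 (in units of 1e+06) set the precision of low genes, and PCR duplicates were not marked by molecular identifiers.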

Additional observations from a re-analysis of the deposited data

Results flagged for a closer look

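Of 127 named genes, 3 (2.36%) had an RV to LV difference of 1 sign in all 3 Wnt LOF pairs and of the other sign in all 3 control pairs. The same held for 418 of all 15494 genes tested (2.70%), so the share among the named genes was near that of all genes. For Mir6236 the difference between the genotypes passed the test, at -1.55 on the log2 scale with the labels as deposited. Every Wnt LOF pair was lower in the RV and every control pair higher, with pair differences of -1.28, -1.24 and -1.21 in Wnt LOF hearts and 0.30, 0.074 and 0.54 in control hearts. The Wnt LOF LV libraries held the 3 highest levels of the 12.

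Hspb6, a small heat shock protein of muscle, had 164, 199 and 133 CPM in the Wnt LOF LV and 192, 265 and 165 CPM in the RV, and 194, 207 and 265 CPM in the control LV and 186, 179 and 196 CPM in the control RV. All 3 Wnt LOF pairs, pair 1 included, were higher in the RV and all 3 control pairs lower. The difference of 0.55 had an adjusted p of 0.996 by edgeR and did not pass. Tbx20, a cardiac T-box factor, had pair differences of 0.030, 0.042 and 0.11 in Wnt LOF hearts and -0.082, -0.027 and -0.13 in control hearts. The difference of 0.14 had an adjusted p of 0.996 by edgeR and did not pass.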

How the results depend on the processing

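With the labels as deposited, the number of genes called in Wnt LOF hearts was 1 and became 0 without the replicate block, 392 with no expression filter, 81 by DESeq2 and 2 with the length offset. Leaving out 1 Wnt LOF pair at a time gave 1 to 297, the last without pair 1. Without pair 1 the count of 297 became 2 without the replicate block, 1015 with no expression filter and 179 without control pair 2, and it ran from 18 to 897 when pair 2 or pair 3 was left out, where the remaining pair is assumed to vary like the controls. For the other settings it ran from 213 to 356. DESeq2 called 268 genes, of which 179 were shared, and gave no adjusted p to 69 of the 297. In control hearts the count of 0 became 554 with no expression filter, 1 by DESeq2, 326 with the control libraries alone and up to 3 with 1 control pair left out.

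For the difference between the genotypes with the labels as deposited, the count of 1 became 0 without the replicate block, 83 with no expression filter and 0 with the length offset, and ran from 0 to 2 with 1 pair left out. Without pair 1 the count of 1 became 0 without the replicate block, 32 with no expression filter, 2 by DESeq2, 0 with a dispersion that was not robust and 3 with the length offset. It ran from 0 to 10 with 1 pair left out. Of 74 named genes called without pair 1, 72 lost the call without the block. In the 9 settings that keep the block and Wnt LOF pairs 2 and 3, 47 of the 74 kept it wherever they had an adjusted p. Settings with no adjusted p for a gene were not counted: DESeq2 gave one to 79 of 129 named genes, and the stricter filter to 124. Hba-a2 ran from -2.33 to 0.76 and Per1 from -0.54 to 0.015 with Wnt LOF pair 2 or 3 left out. In these fits Hba-a2 was not called and Per1 was called without pair 3 (adjusted p = 0.0139 by edgeR). Except for the changes named, the causes were not tested. Genes with few counts are limited by depth: Hand1 with 1 count and Sln with at most 3 in 11 libraries could not be compared.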
